A study of Homo sapiens with 12 samples.

Results

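The genes described here are 10 amino acid transporter genes, SLC1A4, SLC1A5, SLC3A2, SLC6A14, SLC7A1, SLC7A2, SLC7A5, SLC7A8, SLC38A1 and SLC38A2. They were taken by symbol from the 20531 genes listed for each library, without a rule on their values. Their mRNA was measured by RNAseq of SKBR-3 in 12 libraries that form 4 groups of 3 replicates. SKBR-3 is an established human breast cancer line with amplified HER2 and without the estrogen receptor. Cells carried either a non-targeting (NT) siRNA pool or a pool directed at FOXA1, a forkhead transcription factor, and were then given DMSO, the vehicle, or 300 nM lapatinib, which blocks the kinases HER2 and EGFR, for 24 h. The labels give 48 h of siRNA, and the methods give 24 h of siRNA before the drug. The groups were NT siRNA with DMSO (the control), NT siRNA with lapatinib, FOXA1 siRNA with DMSO, and FOXA1 siRNA with lapatinib. All 4 groups were transfected cells of a single line, and each siRNA was used as a pool.

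Amino acids cross the plasma membrane through carriers that differ in substrate and in driving force. SLC7A5 (LAT1) and SLC7A8 (LAT2) are light chains that bind the SLC3A2 (CD98) heavy chain and exchange large neutral amino acids such as leucine, often against intracellular glutamine. SLC1A5 (ASCT2), SLC38A1 (SNAT1) and SLC38A2 (SNAT2) carry glutamine and other neutral amino acids with sodium, SLC7A1 and SLC7A2 (CAT1 and CAT2) carry arginine and lysine, and several of these carriers are raised in tumors and are linked to mTORC1 activity through amino acid supply.

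The bases just upstream of 3 members are given because each of these genes has a single RefSeq start in the table used, more than 100 normalized counts per library on average, and a window of 250 bases that lies outside the gene itself and outside all annotated exons. They are from RefSeq on GRCh38.p14, written 5' to 3' on the strand of the gene, which is the minus strand for all 3, and end at the base before the start. Capitals mark a match to 1 of 4 searched motifs, and a sequence with no capitals held none of them. SLC7A5 is at chr16:87830023-87869507 with its window at chr16:87869508-87869757, SLC7A1 is at chr13:29509414-29595688 with its window at chr13:29595689-29595938, and SLC38A2 is at chr12:46358188-46372773 with its window at chr12:46372774-46373023.
SLC7A5: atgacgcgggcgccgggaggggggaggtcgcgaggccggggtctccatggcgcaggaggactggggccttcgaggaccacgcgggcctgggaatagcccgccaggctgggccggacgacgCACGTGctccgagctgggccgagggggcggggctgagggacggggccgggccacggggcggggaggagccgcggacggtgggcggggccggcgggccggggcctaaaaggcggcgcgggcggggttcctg
SLC7A1: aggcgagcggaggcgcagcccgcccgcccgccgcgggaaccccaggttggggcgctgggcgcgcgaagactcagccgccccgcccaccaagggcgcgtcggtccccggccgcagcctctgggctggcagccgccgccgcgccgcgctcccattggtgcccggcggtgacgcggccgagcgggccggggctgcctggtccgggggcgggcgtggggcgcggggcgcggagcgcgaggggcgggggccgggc
SLC38A2: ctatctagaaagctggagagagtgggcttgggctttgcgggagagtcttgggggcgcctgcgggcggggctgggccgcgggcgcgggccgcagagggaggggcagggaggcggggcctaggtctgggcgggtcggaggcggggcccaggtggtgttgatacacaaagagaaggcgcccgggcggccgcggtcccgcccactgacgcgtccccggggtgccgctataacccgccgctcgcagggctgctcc
The motifs were TGATGNAA, read by ATF4 with C/EBP proteins, CACGTG, the E-box read by MYC and related factors, and the forkhead motifs GTAAACA and GTCAACA, each searched on both strands. Promoter windows of 9 members were searched, 18 windows in all. SLC7A2 was not among the members searched, so whether its promoter holds these motifs was not tested. The SLC7A5 window held CACGTG from 130 to 125 bases before the start, and 1 of the windows of SLC7A8 and 1 of SLC1A5, both at starts inside the gene, also held it. Another internal window of SLC1A5 held TGATGCAA and GTAAACA. Of 35116 promoter windows of the same length, 6.34% held CACGTG, 3.14% TGATGNAA, 2.98% GTAAACA and 1.95% GTCAACA. A match describes the letters only, and binding was not measured here.

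The libraries held between 25749578 and 32271850 expected counts, the estimated numbers of reads per gene, with the lowest total in replicate 1 of NT siRNA with lapatinib. The replicate 2 library stood apart from replicates 1 and 3 in every group, with a chi-square per degree of freedom of 12.1 to 17.6 in pairs with replicate 2 and of 3.62 to 5.68 in pairs without it. FOXA1, the gene targeted, was between 8308 and 8766 normalized counts (counts scaled to a common depth) in the control, between 1160 and 1564 with FOXA1 siRNA and DMSO, and between 1642 and 2384 with FOXA1 siRNA and lapatinib. With NT siRNA and lapatinib it was between 12167 and 13175, and no library with FOXA1 siRNA overlapped a library with NT siRNA. The SKBR-3 identity list (ERBB2, GRB7, EPCAM, KRT8, KRT18 and KRT19) summed to between 428919 and 786370 normalized counts per library, and ESR1 had between 12.0 and 43.1. The list of markers of other cell types (PTPRC, CD68, PECAM1, VWF, COL1A1, COL1A2, COL3A1, DCN and LUM) summed to between 991 and 1682 normalized counts, and COL1A2, COL3A1 and LUM had at most 3 counts in every library. Most of that sum was CD68, with group means of 524 to 1091, and COL1A1, with 311 to 497. VWF had group means of 45.2 to 84.8. In these bulk samples, fewer cells of a type and less RNA per cell cannot be told apart. No label says that replicates came from separate cultures, so p-values measure the spread between these samples, which may be technical.

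Compared per length, the carriers of large neutral amino acids and of glutamine led the set in control cells. In TPM (a transcript level scaled to length and library), SLC7A5 was 554 ± 36.2 (SD, n = 3), SLC3A2 523 ± 30.5 and SLC1A5 377 ± 10.9, higher than 98.9%, 98.9% and 98.4% of the listed genes. SLC38A1 (156 ± 0.584), SLC38A2 (91.9 ± 3.21), SLC7A1 (54.7 ± 1.93), SLC7A8 (19.6 ± 2.16) and SLC1A4 (9.63 ± 1.38) followed. SLC6A14, a carrier of both neutral and cationic amino acids, was at 0.203 ± 0.0289 TPM and SLC7A2 at 0.0733 ± 0.0416. Of neighbors in this order, only SLC7A5 and SLC3A2 had overlapping libraries. SLC7A5, SLC3A2, SLC1A5 and SLC38A1 made up 90.1% ± 0.404 of the summed TPM of the 10 genes.

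The order at the top differed between groups. With NT siRNA and lapatinib, SLC1A5 was the highest at 580 ± 29.1 TPM, above SLC3A2 (450 ± 17.6) and SLC7A5 (430 ± 11.1), which overlapped. With FOXA1 siRNA and DMSO, SLC3A2 (447 ± 7.90) was above SLC7A5 (362 ± 28.4) and SLC1A5 (302 ± 4.39), with no overlap between them. With FOXA1 siRNA and lapatinib, SLC3A2 (424 ± 16.5) and SLC1A5 (408 ± 21.0) overlapped, SLC7A5 (341 ± 11.2) was below both, and SLC7A8 (39.4 ± 1.02) overlapped SLC7A1 (36.6 ± 3.54). The summed TPM of the 10 genes was 1786 ± 71.6 in the control, 1883 ± 45.9 with lapatinib under NT siRNA, 1509 ± 19.1 with FOXA1 siRNA and DMSO, and 1671 ± 27.0 with both. The TPM of all listed genes summed to between 924228 and 939340 in control libraries and between 896833 and 905628 with NT siRNA and lapatinib. This total was also lower with lapatinib under FOXA1 siRNA, so the summed TPM of the 10 genes has a differing base between groups.

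**Figure D1:**
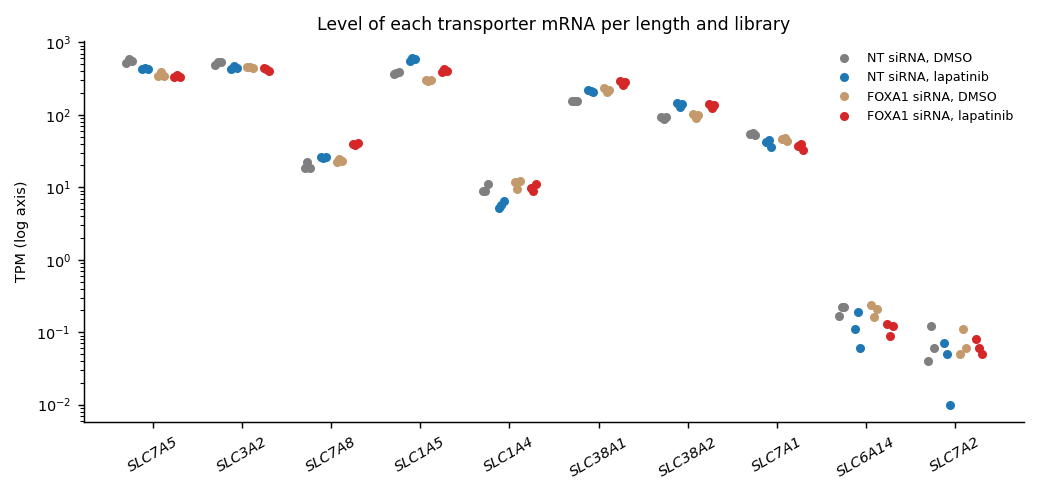
TPM on a log axis of the 10 transporter genes, with a point for each of the 12 libraries, colored by group. SLC7A5, SLC3A2 and SLC1A5 sit between 297 and 608 TPM in every library, and SLC6A14 and SLC7A2 below 0.25.

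Changes in these genes were smaller than 2-fold wherever they passed the test. That test was the quasi-likelihood test of edgeR, with p adjusted by Benjamini-Hochberg over all genes tested. Of the 10 members, 4 rose (SLC7A8, SLC1A5, SLC38A1 and SLC38A2) and 4 fell (SLC7A5, SLC3A2, SLC1A4 and SLC7A1) with lapatinib under NT siRNA at an adjusted p under 0.05, where 30.5% of the 13713 genes tested rose and 29.2% fell. With lapatinib under FOXA1 siRNA, 4 rose and 1 fell, against 29% and 29.1% of 13745 genes. With FOXA1 siRNA in DMSO, 1 rose and 4 fell, against 21.9% and 21.3% of 13694 genes, and with the replicate block the counts were 4 and 4. With FOXA1 siRNA in lapatinib, 3 rose and 2 fell of the 8 members that had enough counts to be tested, against 22.7% and 22.2% of 13727 genes, and with the replicate block 3 rose and 4 fell. The shares of all genes that rose or fell, here and below, are from the fits without the block. None was computed with the block, so its counts have no share to be read against. The comparisons share groups, with the control in both the first and the third. With no overlap between the libraries of the groups compared, 4 members were higher and 5 lower (SLC6A14 among them) with lapatinib under NT siRNA (32.8% and 33.5% of all genes tested), 4 and 3 under FOXA1 siRNA (again with SLC6A14, 32.2% and 33.1%), 1 and 4 with FOXA1 siRNA in DMSO (26.2% and 27.5%), and 3 and 3 in lapatinib (28.4% and 27%). SLC6A14 reached the 10 counts needed for a test only in DMSO libraries, so the filter favored its place among the lower members.

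Where a 2-fold change was also required, edgeR called 0 members in each of the 4 comparisons, and DESeq2 also called 0. At an unadjusted p under 0.05 with that fold change, the count was 1 for lapatinib with NT siRNA and 0 for the others. The 1 was SLC6A14, which reached 10 counts only in DMSO libraries, so the filter favored its fall. Over all genes, 6.64% rose and 7.12% fell past this limit with lapatinib under NT siRNA, 4.93% and 5.12% with lapatinib under FOXA1 siRNA, 4.06% and 2.77% with FOXA1 siRNA in DMSO, and 4.5% and 3.9% with FOXA1 siRNA in lapatinib. The 8 members above 100 normalized counts differed by log2 fold changes of 0.16 to 0.71 in size with lapatinib under NT siRNA and 0.05 to 0.79 under FOXA1 siRNA. Median log2 fold changes over the members tested were -0.24, -0.06, -0.06 and -0.09 in the 4 comparisons in this order, beside 0.03, 0.01, -0.01 and -0.01 over all genes tested. The lapatinib medians include SLC6A14 and SLC7A2, which reached 10 counts only in DMSO libraries, so the filter favored lower medians there. Their log2 fold changes were -1.19 and -0.73 with lapatinib under NT siRNA, and -0.56 and -0.26 under FOXA1 siRNA. Medians without SLC6A14 and SLC7A2 were not computed.

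**Figure D2:**
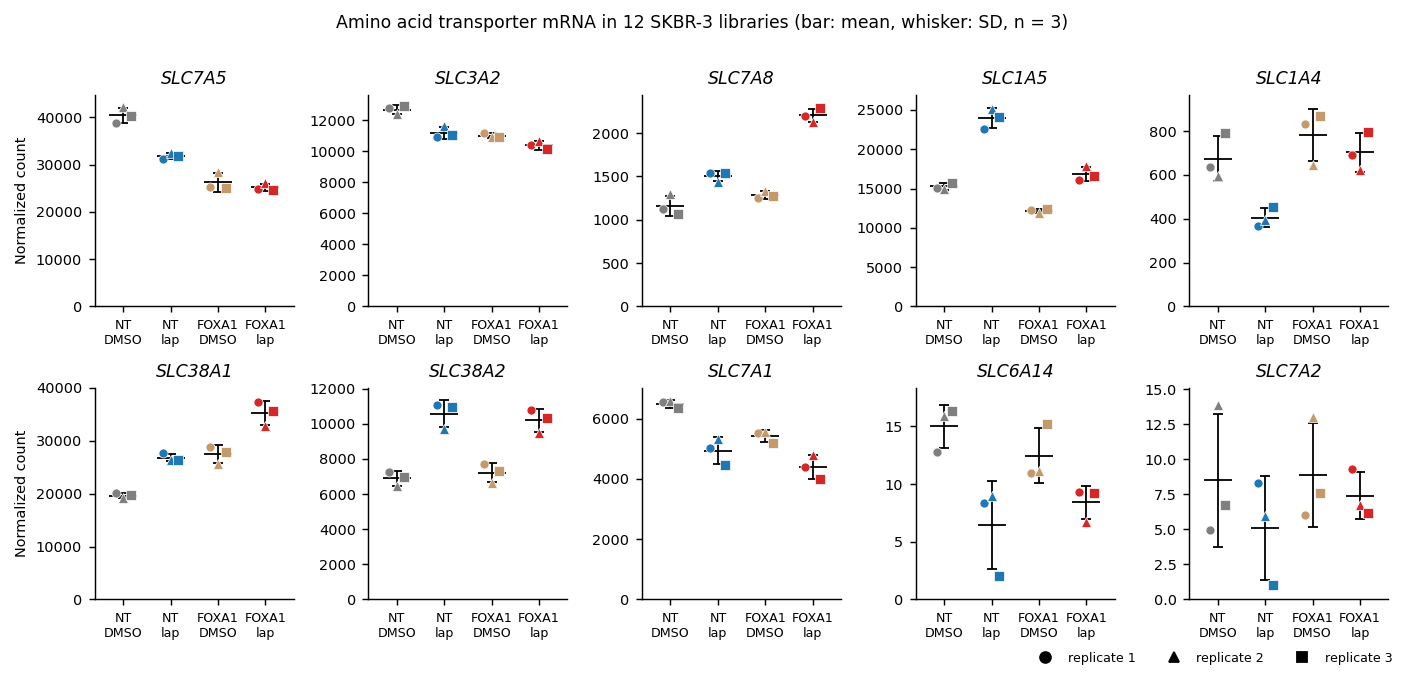
Normalized counts of each transporter gene in the 12 libraries (linear axes from 0), with bars for the mean and whiskers for the SD of 3 replicates. SLC7A5 is highest in the control libraries, SLC1A5 in the libraries with NT siRNA and lapatinib, and SLC7A8 and SLC38A1 in those with FOXA1 siRNA and lapatinib.

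SLC7A5, the leucine exchanger whose upstream bases are given above, was lower in each of the other groups than in the control. It had 38882, 42131 and 40274 normalized counts in replicates 1 to 3 of the control and 31239, 32380 and 31793 with NT siRNA and lapatinib. It had 25256, 28462 and 24969 with FOXA1 siRNA and DMSO, and 24839, 26006 and 24649 with FOXA1 siRNA and lapatinib. The control libraries were all above those of the other groups, and the groups with FOXA1 siRNA overlapped each other. Lapatinib lowered SLC7A5 under NT siRNA by 1.25-fold (log2 fold change -0.33 ± 0.05 SE, edgeR adjusted p = 4.74e-04). FOXA1 siRNA lowered it by 1.53-fold in DMSO (log2 fold change -0.61 ± 0.06, edgeR adjusted p = 1.85e-04) and by 1.27-fold in lapatinib (-0.35 ± 0.04, edgeR adjusted p = 2.70e-04). Under FOXA1 siRNA the log2 difference with lapatinib was -0.05 (95% interval -0.18 to 0.07, edgeR adjusted p = 0.444). SLC7A5P1 and SLC7A5P2, near copies that could share reads with SLC7A5, had at most 16 and 17 counts in a library.

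SLC3A2, the heavy chain that brings LAT1 and LAT2 to the membrane, fell with lapatinib under NT siRNA and with FOXA1 siRNA in DMSO, by a smaller fold than SLC7A5 in each. Its control libraries held 12796, 12378 and 12913 normalized counts, and those with NT siRNA and lapatinib 10933, 11619 and 11029. Libraries with FOXA1 siRNA held 11187, 10915 and 10937 in DMSO and 10379, 10678 and 10124 in lapatinib. The control libraries were again above all others. The fall with lapatinib under NT siRNA was 1.12-fold (log2 fold change -0.16 ± 0.04, edgeR adjusted p = 0.0123) and the adjusted p was 0.0504 without replicate 1 of NT siRNA with lapatinib, the shallowest library. FOXA1 siRNA lowered it by 1.14-fold in DMSO (log2 fold change -0.19 ± 0.03, edgeR adjusted p = 0.00259). The log2 difference of FOXA1 siRNA in lapatinib was -0.11 ± 0.04 (edgeR adjusted p = 0.0634), with an adjusted p of 0.00527 with the replicate block, and that of lapatinib under FOXA1 siRNA was -0.08 ± 0.04 (edgeR adjusted p = 0.121), with 0.0413 when replicate 2 of every group was left out.

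SLC7A8, the other light chain, was higher with lapatinib under either siRNA. Its normalized counts were 1120, 1295 and 1072 in the control, 1536, 1434 and 1534 with NT siRNA and lapatinib, 1249, 1331 and 1275 with FOXA1 siRNA and DMSO, and 2199, 2126 and 2286 with both. The libraries with both treatments stood above all others, whereas control and FOXA1 siRNA libraries in DMSO overlapped. Lapatinib raised it 1.31-fold under NT siRNA (log2 fold change 0.39 ± 0.09, edgeR adjusted p = 0.00447) and 1.72-fold under FOXA1 siRNA (0.79 ± 0.05, edgeR adjusted p = 1.06e-05). FOXA1 siRNA raised it 1.46-fold in lapatinib (log2 fold change 0.55 ± 0.06, edgeR adjusted p = 1.53e-04). In DMSO the log2 difference was 0.16 ± 0.08 (edgeR adjusted p = 0.159), with an adjusted p of 0.0220 with the replicate block, 0.0110 without replicate 2 of the control and 0.00594 without replicate 2 of every group.

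The ratio of the light chains to each other and to the heavy chain is given from TPM values of the same library, with no test. SLC7A5 over SLC7A8 was 28.4 ± 1.74 (SD, n = 3) in the control, 16.6 ± 0.907 with lapatinib under NT siRNA, 15.5 ± 0.702 with FOXA1 siRNA and DMSO, and 8.65 ± 0.507 with both. The control libraries (26.8 to 30.3) were above, and the libraries with both treatments (8.21 to 9.20) below, all others, which overlapped each other. SLC7A5 over SLC3A2 was 1.06 ± 0.0437 in the control, 0.955 ± 0.0149 with lapatinib under NT siRNA, 0.809 ± 0.0567 with FOXA1 siRNA and DMSO, and 0.803 ± 0.0301 with both.

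**Figure D3:**
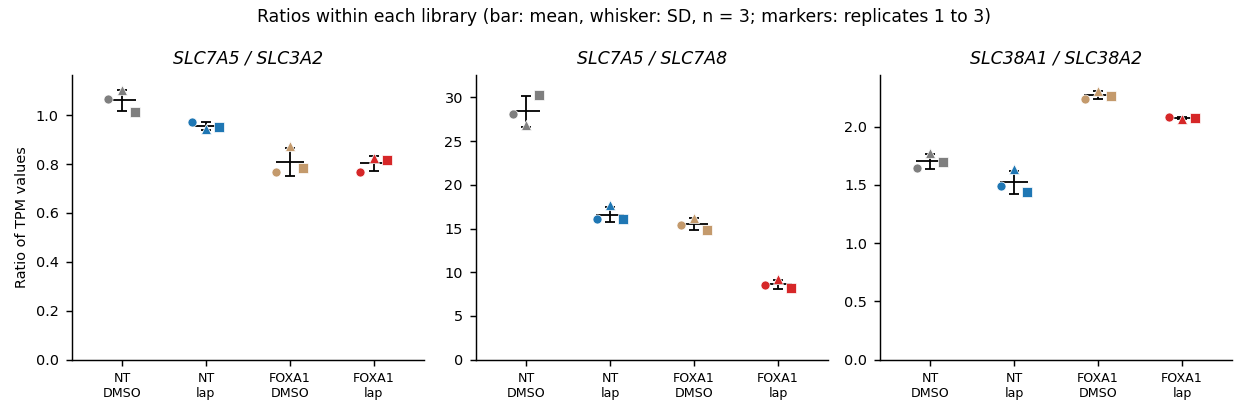
Ratios of TPM values within each of the 12 libraries for SLC7A5 over SLC3A2, SLC7A5 over SLC7A8 and SLC38A1 over SLC38A2, with the mean and SD of 3 replicates per group on axes from 0. The ratio of SLC7A5 to SLC7A8 runs from 28.4 in the control to 8.65 with FOXA1 siRNA and lapatinib, and that of SLC38A1 to SLC38A2 is higher in both groups with FOXA1 siRNA.

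SLC1A5, the sodium-dependent glutamine exchanger, rose with lapatinib and fell with FOXA1 siRNA. It had 15032, 14985 and 15763 normalized counts in the control and 22598, 25121 and 24145 with NT siRNA and lapatinib. It had 12235, 11911 and 12345 with FOXA1 siRNA and DMSO and 16123, 17853 and 16535 with FOXA1 siRNA and lapatinib. No 2 groups overlapped. Lapatinib raised it 1.59-fold under NT siRNA (log2 fold change 0.67 ± 0.05, edgeR adjusted p = 1.39e-05) and 1.39-fold under FOXA1 siRNA (0.48 ± 0.05, edgeR adjusted p = 6.63e-05). FOXA1 siRNA lowered it 1.24-fold in DMSO (log2 fold change -0.31 ± 0.04, edgeR adjusted p = 3.66e-04) and 1.43-fold in lapatinib (-0.52 ± 0.06, edgeR adjusted p = 1.87e-04). SLC1A5 thus passed in all 4 comparisons, higher with the drug under each siRNA and lower with the knockdown in DMSO and in lapatinib.

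SLC1A4, a related exchanger of alanine, serine and cysteine, was the lowest in libraries with NT siRNA and lapatinib. Its normalized counts were 635, 596 and 791 in the control, 369, 393 and 453 with NT siRNA and lapatinib, 832, 647 and 869 with FOXA1 siRNA and DMSO, and 690, 622 and 797 with both. The libraries with NT siRNA and lapatinib lay below all others, which overlapped. Lapatinib lowered it 1.64-fold under NT siRNA (log2 fold change -0.71 ± 0.13, edgeR adjusted p = 0.00136), and under FOXA1 siRNA the log2 difference was -0.15 (95% interval -0.45 to 0.15, edgeR adjusted p = 0.361). FOXA1 siRNA raised it 1.73-fold in lapatinib (log2 fold change 0.79 ± 0.11, edgeR adjusted p = 9.05e-04). In DMSO the log2 difference was 0.23 ± 0.14 (edgeR adjusted p = 0.217), with an adjusted p of 0.0122 with the replicate block and 0.0340 without replicate 2 of every group. The ratio of SLC1A5 to SLC1A4 in TPM was 39.6 ± 4.43 in the control, 102 ± 10.1 with lapatinib under NT siRNA, 27.3 ± 3.87 with FOXA1 siRNA and DMSO, and 41.6 ± 6.63 with both.

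SLC38A1, a sodium-coupled glutamine carrier, rose with the drug and with the knockdown. It had 20044, 19149 and 19696 normalized counts in the control, 27624, 26396 and 26384 with NT siRNA and lapatinib, 28867, 25596 and 27918 with FOXA1 siRNA and DMSO, and 37283, 32750 and 35701 with both. The control libraries were the lowest and those with both treatments the highest, with no overlap with the other groups. Lapatinib raised it 1.39-fold under NT siRNA (log2 fold change 0.47 ± 0.04, edgeR adjusted p = 3.80e-05) and 1.29-fold under FOXA1 siRNA (0.37 ± 0.06, edgeR adjusted p = 0.00114). FOXA1 siRNA raised it 1.41-fold in DMSO (log2 fold change 0.50 ± 0.05, edgeR adjusted p = 1.42e-04) and 1.31-fold in lapatinib (0.39 ± 0.06, edgeR adjusted p = 7.99e-04).

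SLC38A2, the paralog known for its induction when amino acids are scarce, rose with the drug. Its normalized counts were 7273, 6461 and 6947 in the control and 11059, 9680 and 10972 with NT siRNA and lapatinib, and 7724, 6627 and 7302 and then 10773, 9484 and 10333 in the same treatments with FOXA1 siRNA. Every lapatinib library was above every DMSO library, and the siRNA groups overlapped within each treatment. Lapatinib raised it 1.56-fold under NT siRNA (log2 fold change 0.64 ± 0.07, edgeR adjusted p = 8.49e-05) and 1.42-fold under FOXA1 siRNA (0.51 ± 0.07, edgeR adjusted p = 3.55e-04). The log2 difference of FOXA1 siRNA was 0.08 in DMSO (95% interval -0.07 to 0.23, edgeR adjusted p = 0.344, and 0.0336 with the replicate block) and -0.06 in lapatinib (-0.22 to 0.10, edgeR adjusted p = 0.518). The ratio of SLC38A1 to SLC38A2 in TPM was 1.70 ± 0.0645 in the control, 1.52 ± 0.101 with lapatinib under NT siRNA, 2.27 ± 0.0352 with FOXA1 siRNA and DMSO, and 2.07 ± 0.00700 with both.

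SLC7A1, the arginine and lysine carrier, fell with lapatinib under either siRNA. It had 6549, 6590 and 6346 normalized counts in the control, 5038, 5335 and 4462 with NT siRNA and lapatinib, 5515, 5548 and 5200 with FOXA1 siRNA and DMSO, and 4382, 4802 and 3991 with both. The control libraries were the highest, and the lapatinib groups overlapped each other. The fall with lapatinib was 1.29-fold under NT siRNA (log2 fold change -0.37 ± 0.07, edgeR adjusted p = 0.00173) and 1.23-fold under FOXA1 siRNA (-0.30 ± 0.07, edgeR adjusted p = 0.00576). FOXA1 siRNA lowered it 1.19-fold in DMSO (log2 fold change -0.25 ± 0.04, edgeR adjusted p = 0.00249). In lapatinib the log2 difference was -0.18 ± 0.09 (edgeR adjusted p = 0.124), with an adjusted p of 5.34e-04 with the replicate block.

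SLC6A14 and SLC7A2 were close to the limit of what this depth can show, taken as 3 counts and covering counting error only. Both reached the 10 counts needed for a test only in DMSO libraries. The filter thus favored a fall with lapatinib, and the fits below cannot show one. SLC6A14 had 12.8, 15.9 and 16.3 normalized counts in the control, 8.32, 8.95 and 2.05 with NT siRNA and lapatinib, 10.99, 11.2 and 15.2 with FOXA1 siRNA and DMSO, and 9.30, 6.73 and 9.21 with both. Lapatinib libraries were below DMSO libraries of the same siRNA, but the log2 difference under NT siRNA was -1.19 ± 0.47 (edgeR adjusted p = 0.0545). It was -1.21 ± 0.40 with an adjusted p of 0.0175 when all 12 libraries shared one model, -1.54 ± 0.56 with 0.0453 without replicate 2 of NT siRNA with lapatinib, and -1.52 ± 0.60 with 0.0462 without replicate 2 of every group. Under FOXA1 siRNA it was -0.56 ± 0.32 (edgeR adjusted p = 0.173), and FOXA1 siRNA in DMSO gave -0.25 ± 0.29 (edgeR adjusted p = 0.526). SLC7A2 had between 1 and 14 counts per library, overlapped between all groups, and had edgeR adjusted p values of 0.372 for lapatinib under NT siRNA, 0.608 under FOXA1 siRNA and 0.908 for FOXA1 siRNA in DMSO.

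**Figure D4:**
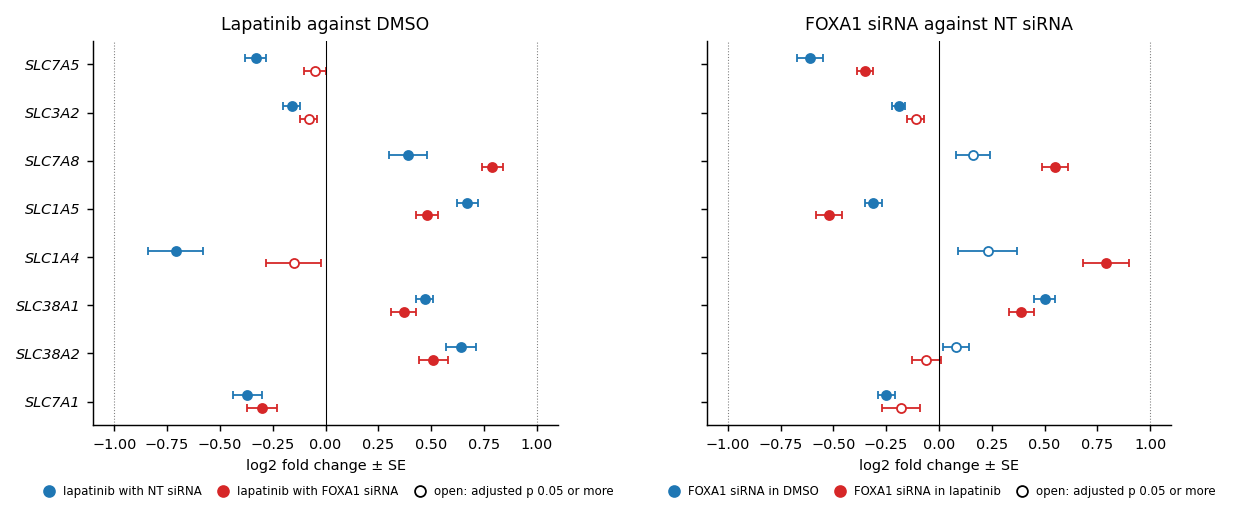
Log2 fold changes with their SE of the 8 transporter genes above 100 normalized counts, for lapatinib against DMSO (left) and FOXA1 siRNA against NT siRNA (right), with filled points where the edgeR adjusted p was under 0.05 and dotted lines at a log2 fold change of 1 in size. All points lie within 0.79 of 0, and SLC1A5 lies to the right in the left panel and to the left in the right panel.

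Whether the response to lapatinib differed between the siRNAs was tested as the interaction over all 12 libraries, given as the log2 response under FOXA1 siRNA minus that under NT siRNA. It passed in 2 of the 10 members, both with a positive value, where 3.99% of 14012 genes had a positive and 3.2% a negative interaction. SLC7A5 had an interaction of 0.29 ± 0.07 (edgeR adjusted p = 0.0335), with responses of -0.33 under NT siRNA and -0.05 under FOXA1 siRNA. The adjusted p stayed under 0.05 in 3 of 12 fits that each left out 1 library, those without replicate 1 of the control, replicate 2 of NT siRNA with lapatinib or replicate 2 of FOXA1 siRNA with DMSO, and reached 0.0900 without replicate 3 of FOXA1 siRNA with DMSO. SLC7A8 had an interaction of 0.41 ± 0.10 (edgeR adjusted p = 0.0252), with responses of 0.39 and 0.79. Its adjusted p stayed under 0.05 in 8 of 12 such fits and was between 0.0583 and 0.0653 without replicate 1 or 3 of either group with FOXA1 siRNA. SLC1A4 had a larger interaction with a larger error, 0.58 ± 0.20 (edgeR adjusted p = 0.105), with 0.00227 with the replicate block and 0.0345 without replicate 2 of every group. For SLC1A5 it was -0.18 ± 0.07 (edgeR adjusted p = 0.140), with 0.0425 with the block and 0.0387 without replicate 2 of every group. Interactions of SLC38A1, SLC38A2, SLC3A2 and SLC7A1 were between -0.12 and 0.10, with edgeR adjusted p between 0.317 and 0.686. Those of SLC6A14 and SLC7A2 were 0.65 ± 0.56 and 0.48 ± 0.80.

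SLC7A5 was the most abundant light chain in every group, so the genes whose group means were most like its own were listed. Likeness was the root mean square difference of centered log2 group means over the 4 groups, among 10811 genes with a mean of at least 100 normalized counts. The nearest were NFKBIE, an inhibitor of NF-kB, with 0.0157, THYN1 with 0.0243 and C16orf53 with 0.0288. Centered log2 means of SLC7A5 were 0.41 in the control, 0.07 with lapatinib under NT siRNA, -0.21 with FOXA1 siRNA and DMSO, and -0.27 with both, and those of NFKBIE were 0.40, 0.06, -0.19 and -0.27. Of the other members, SLC7A1 ranked 677 (0.161), SLC3A2 ranked 854 (0.173), and SLC1A5, SLC38A2, SLC1A4, SLC38A1 and SLC7A8 ranked between 6396 and 9010. SLC6A14 and SLC7A2 were below the minimum and were not ranked.

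Other amino acid transporters included genes with larger changes than any of the 10 members. Of 38 listed, 21 were tested with lapatinib under NT siRNA, of which 5 rose and 7 fell. With lapatinib under FOXA1 siRNA, 7 rose and 10 fell of 23, with FOXA1 siRNA in DMSO 3 rose and 5 fell of 22, and with FOXA1 siRNA in lapatinib 3 rose and 7 fell of 22, against the shares of all genes given above for each comparison. With the replicate block, 6 rose and 9 fell, 7 and 11, 6 and 6, and 4 and 9 in the same order, with no share over all genes computed. Median log2 fold changes over those tested were -0.13, -0.28, -0.01 and -0.20. The genes named next have a mean of at least 100 normalized counts, and listed genes below that level, some with larger log2 fold changes, are in the counts only. With lapatinib under FOXA1 siRNA and with FOXA1 siRNA in lapatinib, some counted genes reached 10 counts only in the group where they were higher. With the replicate block this also held with FOXA1 siRNA in DMSO. The filter favored the direction in which such genes were counted.

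SLC1A2 and SLC1A3, both glutamate carriers, changed in opposite directions. SLC1A2 had 199 ± 38.3 (SD, n = 3) normalized counts in the control, 892 ± 99.6 with lapatinib under NT siRNA, 71.8 ± 9.50 with FOXA1 siRNA and DMSO, and 303 ± 36.6 with both. Its log2 fold change with lapatinib was 2.18 under NT siRNA (edgeR adjusted p = 8.62e-06) and 2.08 under FOXA1 siRNA (edgeR adjusted p = 1.32e-05), and FOXA1 siRNA gave -1.45 in DMSO (edgeR adjusted p = 5.12e-04) and -1.56 in lapatinib (edgeR adjusted p = 3.02e-05). SLC1A3 had 121 ± 12.6, 30.1 ± 5.93, 179 ± 34.9 and 102 ± 19.2 in the same order, with a log2 fold change of -1.98 for lapatinib under NT siRNA (edgeR adjusted p = 6.26e-05) and 1.75 for FOXA1 siRNA in lapatinib (edgeR adjusted p = 4.26e-04). No compared groups of SLC1A2 or SLC1A3 overlapped.

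SLC7A11, the cystine and glutamate exchanger that also pairs with SLC3A2, had 865 ± 97.3 normalized counts in the control and 1731 ± 385 with NT siRNA and lapatinib, a log2 fold change of 1.02 (edgeR adjusted p = 4.98e-04). Under FOXA1 siRNA it rose by 0.94 (edgeR adjusted p = 2.02e-04). Without replicate 2 of every group these log2 fold changes were 0.72 under NT siRNA and 0.74 under FOXA1 siRNA. SLC6A9, a glycine carrier, had a log2 fold change of 1.23 with lapatinib under NT siRNA (edgeR adjusted p = 2.26e-05). SLC16A10, a carrier of aromatic amino acids, fell by a log2 fold change of 1.08 with FOXA1 siRNA in DMSO (edgeR adjusted p = 0.00183), by 1.63 in lapatinib (edgeR adjusted p = 0.00241) and by 1.21 with lapatinib under FOXA1 siRNA (edgeR adjusted p = 2.55e-04). SLC6A15, a carrier of neutral amino acids, rose with FOXA1 siRNA by 0.72 in DMSO (edgeR adjusted p = 2.18e-04) and 1.12 in lapatinib (edgeR adjusted p = 3.98e-05). SLC43A2 (LAT4), a uniporter of large neutral amino acids, fell with FOXA1 siRNA by a log2 fold change of 0.27 in DMSO (edgeR adjusted p = 0.00946) and 0.77 in lapatinib (edgeR adjusted p = 2.28e-04).

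**Figure D5:**
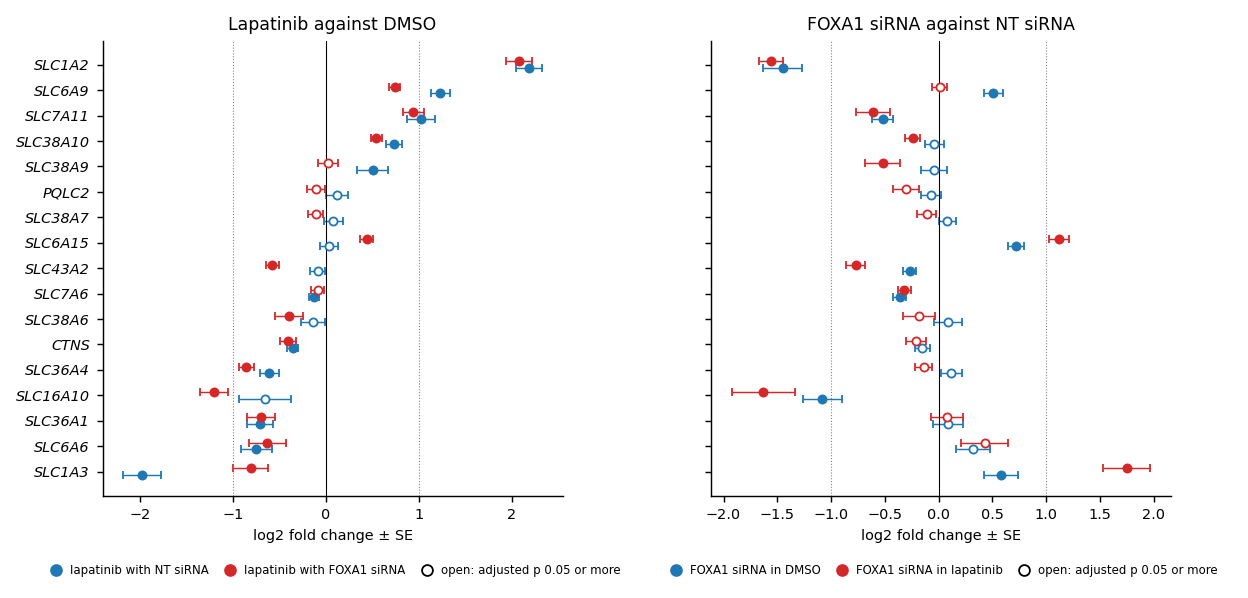
Log2 fold changes with their SE of the 17 other amino acid transporters above 100 normalized counts, for lapatinib against DMSO (left) and FOXA1 siRNA against NT siRNA (right), with open points where the edgeR adjusted p was not under 0.05 and dotted lines at 1 in size. SLC1A2 reaches 2.18 and SLC1A3 -1.98 with lapatinib under NT siRNA, and SLC16A10 is lower with FOXA1 siRNA in DMSO and in lapatinib.

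ATF4, a transcription factor of the amino acid response, had log2 fold changes with lapatinib of 0.61 under NT siRNA (edgeR adjusted p = 0.00152) and 0.55 under FOXA1 siRNA (edgeR adjusted p = 0.00186). Its target ASNS, asparagine synthetase, had 0.11 (edgeR adjusted p = 0.218) and -0.05 (edgeR adjusted p = 0.450), and CHAC1, another target, rose under both siRNAs, by 2.19 under FOXA1 siRNA (edgeR adjusted p = 3.15e-04). CHAC1 varied widely in lapatinib, with 466 ± 234 (SD, n = 3) normalized counts under NT siRNA and 425 ± 165 under FOXA1 siRNA. In both lapatinib groups CHAC1 and ATF4 were highest in replicate 2, the library that stood apart. PSAT1 and PHGDH, enzymes of serine synthesis on the same list, fell with lapatinib. The log2 fold change of PSAT1 was -1.32 under NT siRNA (edgeR adjusted p = 2.63e-05) and -1.54 under FOXA1 siRNA (edgeR adjusted p = 8.05e-06), and that of PHGDH was -0.80 under NT siRNA (edgeR adjusted p = 7.52e-04).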

How the data were processed

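RNAseq of 12 SKBR-3 libraries was analyzed, with groups and replicate numbers taken from the labels of the samples. Per gene and library, the authors deposited expected counts (estimated, not always whole) and TPM values. They aligned to hg38 with STAR by the methods, which name Salmon for quantification, whereas the deposited columns are those of RSEM and the submitters' processing notes name RSEM, R 3.2.2 and DESeq2 1.12.3. Deposited FPKM and upper-quartile values were not used. Use of strand in counting is not given in the sources used here.

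Expected counts were rounded to whole numbers and tested in R 4.3.3 with edgeR 4.0.16 (TMM normalization, quasi-likelihood test, Benjamini-Hochberg adjustment over all genes tested). Comparisons of 2 groups used their own 6 libraries and the interaction all 12, and a gene was tested where any of these reached 10 counts. Normalized counts are counts over TMM-scaled library sizes at the mean depth. Deposited TPM values were used for levels between genes and for ratios. Depth was between 25749578 and 32271850 counts, and floors and counts cover counting error only. Scripts were tested on simulated data. Tables were made with Python 3.11.15 and pandas 2.3.3, and plots with matplotlib 3.10.9.

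Alternatives were DESeq2 1.42.0, RLE and upper-quartile normalization, no filter and a filter of 10 counts in every library, 1 model for all 12 libraries, no fold-change minimum, the replicate number as a block, each library left out and, chosen after seeing the data, replicate 2 of every group left out. Libraries of different groups that share a number had correlated deviations from the means of their groups (mean r = 0.427, 0.267 to 0.696 over 18 pairs and 10812 genes, against -0.199 for different numbers). Deviations cancel within each group, so the value for different numbers largely follows from that for shared numbers and is no separate contrast. The numbers come from the labels, and what they stand for is not stated there.

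The members and gene lists were chosen with earlier results of these data known. All members are named, and of every other list at most 4 genes with the largest changes among those called per comparison with a mean of at least 100 normalized counts, besides SLC7A11, SLC43A2, ASNS and ATF4.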

Additional observations from a re-analysis of the deposited data

Results flagged for a closer look

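SLC7A5 and SLC7A8, the LAT1 and LAT2 light chains, were singled out among the 10 members because their response to lapatinib differed between the siRNAs by the interaction test. The response of SLC7A5 under FOXA1 siRNA was higher by 0.29 on the log2 scale than under NT siRNA (edgeR adjusted p = 0.0335). That of SLC7A8 was higher by 0.41 (edgeR adjusted p = 0.0252). Of 23 other amino acid transporters tested, 2 had a positive and 2 a negative interaction (3.99% and 3.2% of all genes). These were SLC1A3 (1.19, edgeR adjusted p = 0.0252), SLC6A15 (0.43, 0.0456), SLC43A2 (-0.48, 0.0214) and SLC6A9 (-0.48, 0.0336).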

How the results depend on the processing

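No member changed its call or direction under DESeq2, RLE or upper-quartile normalization, without the filter, or with the stricter filter, under which SLC6A14 and SLC7A2 were not tested. Without a fold-change minimum the members called, 0 in each direction with it, were 4 higher and 4 lower for lapatinib under NT siRNA, 4 and 1 under FOXA1 siRNA, 1 and 4 for FOXA1 siRNA in DMSO, and 3 and 2 in lapatinib. In 1 model of all 12 libraries, 1 member (SLC6A14, which reached 10 counts only in DMSO libraries) was lower past 2-fold with lapatinib under NT siRNA. With the replicate block the interaction was negative in 1 member (SLC1A5), and beyond the calls lost or gained that are given beside each result the block changed no other call of a member. Leaving out a library, or replicate 2 of every group, gave 0 to 1 members lower past 2-fold with lapatinib under NT siRNA, 0 to 3 members with a positive and 0 to 1 with a negative interaction. Directions turned only for values that did not pass: with 1 library or replicate 2 of every group left out, SLC7A5 with lapatinib under FOXA1 siRNA ranged from -0.08 to 0.01 (above 0 without replicate 2 of FOXA1 siRNA with DMSO), SLC7A2 with FOXA1 siRNA in DMSO from -0.30 to 0.63 (below 0 also at -0.19 and -0.06, without replicate 1 or 3 of the control), and the SLC7A2 interaction from -0.05 to 0.97 (also -0.01 without replicate 3 of NT siRNA with lapatinib). The causes of these shifts were not tested. With 3 libraries a group, members at a few counts (SLC6A14 and SLC7A2) had SE of at least 0.29 on the log2 scale, so a difference of that size was not detectable.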

Other observations

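Genes that sense amino acids upstream of mTORC1 and genes that metabolize the carried amino acids changed in both directions. Of 26 sensing genes, 9 rose and 5 fell with lapatinib under NT siRNA (30.5% and 29.2% of all genes did), 6 rose and 9 fell under FOXA1 siRNA (29% and 29.1%), 8 rose and 6 fell with FOXA1 siRNA in DMSO (21.9% and 21.3%), and 4 rose and 6 fell in lapatinib (22.7% and 22.2%). With the replicate block, 7 rose and 10 fell with FOXA1 siRNA in lapatinib, with no share over all genes computed. SEH1L, a subunit of the GATOR2 complex, had 2443 ± 74.0 (SD, n = 3) normalized counts in the control and 1378 ± 24.4 with NT siRNA and lapatinib, a log2 fold change of -0.80 (edgeR adjusted p = 7.55e-06). FLCN, folliculin, which acts on RagC and RagD, had 687 ± 45.8 in the control and 364 ± 20.9 with FOXA1 siRNA and DMSO, a log2 fold change of -0.90 (edgeR adjusted p = 1.09e-04), and -0.75 in lapatinib (edgeR adjusted p = 1.89e-04). RRAGC itself had -0.46 with FOXA1 siRNA in DMSO (edgeR adjusted p = 0.00280) and 0.61 with lapatinib under FOXA1 siRNA (edgeR adjusted p = 0.00151).

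Of 15 tested genes of glutamine, branched-chain and arginine metabolism, 5 rose and 5 fell with lapatinib under NT siRNA (30.5% and 29.2% of all genes), 6 and 5 under FOXA1 siRNA (29% and 29.1%), 3 and 6 with FOXA1 siRNA in DMSO (21.9% and 21.3%), and 4 and 3 in lapatinib (22.7% and 22.2%). With the replicate block, 7 rose and 6 fell with FOXA1 siRNA in lapatinib, with no share over all genes computed. ODC1, ornithine decarboxylase of polyamine synthesis, had 4568 ± 281 normalized counts in the control, 1041 ± 96.9 after lapatinib under NT siRNA, 3910 ± 219 after FOXA1 siRNA in DMSO, and 1637 ± 51.9 with both. Its log2 fold change with lapatinib was -2.11 under NT siRNA (edgeR adjusted p = 1.78e-06) and -1.25 under FOXA1 siRNA (edgeR adjusted p = 2.74e-06), with an interaction of 0.88 ± 0.10 (edgeR adjusted p = 6.35e-04). GLUL, glutamine synthetase, rose by 0.60 with lapatinib under NT siRNA (edgeR adjusted p = 1.97e-04), GLUD1, glutamate dehydrogenase, by 0.62 (edgeR adjusted p = 1.70e-05), and GOT1, the cytosolic aspartate aminotransferase, fell by 0.73 (edgeR adjusted p = 1.67e-04). With FOXA1 siRNA in DMSO, BCAT2, the mitochondrial branched-chain aminotransferase, fell by 0.53 (edgeR adjusted p = 2.99e-04) and ASS1, argininosuccinate synthase, rose by 0.52 (edgeR adjusted p = 7.06e-04).

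Of 9 genes of the ATF4 response, 4 rose and 2 fell with lapatinib under NT siRNA (30.5% and 29.2% of all genes) and also under FOXA1 siRNA (29% and 29.1%). With FOXA1 siRNA in DMSO 2 rose and 3 fell (21.9% and 21.3%), and in lapatinib TRIB3 and PSAT1 fell (22.2% of all genes). With the replicate block, 2 rose and 5 fell with FOXA1 siRNA in DMSO and 1 and 5 in lapatinib. No share over all genes was computed with the block. Of 9 markers of other cell types, 3 were tested, and CD68 rose by 0.89 (edgeR adjusted p = 0.00400) and COL1A1 fell by 0.65 (edgeR adjusted p = 0.00278) with lapatinib under NT siRNA, whose part in the transporter values was not tested.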
